A study of Bos taurus with 6 samples.

Results

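The genes described here are 8 that act close to the receptor in growth factor signalling: the Sprouty genes SPRY1, SPRY2 and SPRY4, the Spred genes SPRED1 and SPRED2, SPSB1, and the membrane protein genes FLRT2 and FLRT3. They were found by symbol in the platform annotation, which gave 13 of the 43794 probes on the array, or 8 of 15213 named genes. Granulosa cells, the somatic cells that surround the oocyte and make oestradiol, came from follicles of 2 to 6 mm of Holstein cattle and were cultured without serum; FSH and insulin (10 ng/ml of each) were present in treated and control cells alike. FGF8-treated cells received the growth factor at 10 ng/ml on day 5 and were taken at 2 h, and control cells were untreated and carry the label 0 h, so the effect of FGF8 and that of a further 2 h of culture or handling cannot be told apart. There were 3 biological replicates, and each was hybridised on 2 arrays with the Cy3 and Cy5 dyes exchanged, which made 6 arrays. The labels name no separate animals or cultures, so p-values measure only the spread between these 3 replicates.

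When a fibroblast growth factor binds its receptor, adaptor proteins switch on Ras, and the kinases RAF, MEK and ERK follow in turn. ERK activity raises the transcription of genes whose proteins damp the same pathway. The Sprouty proteins act between the receptor and RAF, the Spred proteins bring the Ras inactivator neurofibromin to the membrane, and in mouse development Sprouty genes are transcribed close to sources of FGF8. SPSB1 shares letters but not family with Sprouty: its SPRY domain is another fold, and together with a SOCS box it makes SPSB1 the substrate receptor of a Cullin-5 ubiquitin ligase. FLRT proteins carry leucine-rich repeats outside the cell and bind FGF receptors, UNC5 receptors and latrophilins, and in Xenopus FLRT3 promotes FGF signalling.

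The ratios given are the deposited ones, on the log2 scale with FGF8-treated RNA over control RNA, averaged over the 2 arrays of a replicate and given as mean ± SD over 3 replicates. A probe was kept where its median foreground intensity exceeded a limit, the 95th percentile of negative control spots on that array, in either RNA on at least 4 of 6 arrays. That left 12 of the 13 probes and 7 of the 8 genes, and a gene with several probes is given by its brightest kept probe. These 7 probes were above the limit in both RNAs on all 6 arrays, so none was kept through its level in treated cells only. The limma test was fitted over all 27210 kept probes with Benjamini-Hochberg adjustment.

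SPRY2, SPSB1, SPRY1, SPRED1 and FLRT2 were higher in FGF8-treated than in control cells on all 6 arrays, while SPRED2 and FLRT3 stood near 0 and SPRY4 was not kept. Of the 11188 genes kept, 390 (3.49%) were higher on all 6 arrays and 281 (2.51%) lower on all 6. The median ratio of the 7 genes was 0.51, with replicate medians of 0.55, 0.40 and 0.49, against a median of 0.0054 over all genes. None of the 7 passed the limma test at an adjusted p under 0.05, and 0 of 11188 genes did (0%); 1 of 27210 probes passed (0.00368%), and it carries no gene symbol. At an unadjusted limma p under 0.05, 5 of the 7 were higher and 0 lower, beside 3.10% of all genes higher and 2.43% lower. The genes were chosen with earlier results of these data known, so the counts and medians set beside those of all genes are a description. When the 6 arrays were fitted singly and the replicate number entered as a block, 1 of the 7 passed, which was SPRY2, beside 11 of all 11188 genes.

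**Figure D1:**
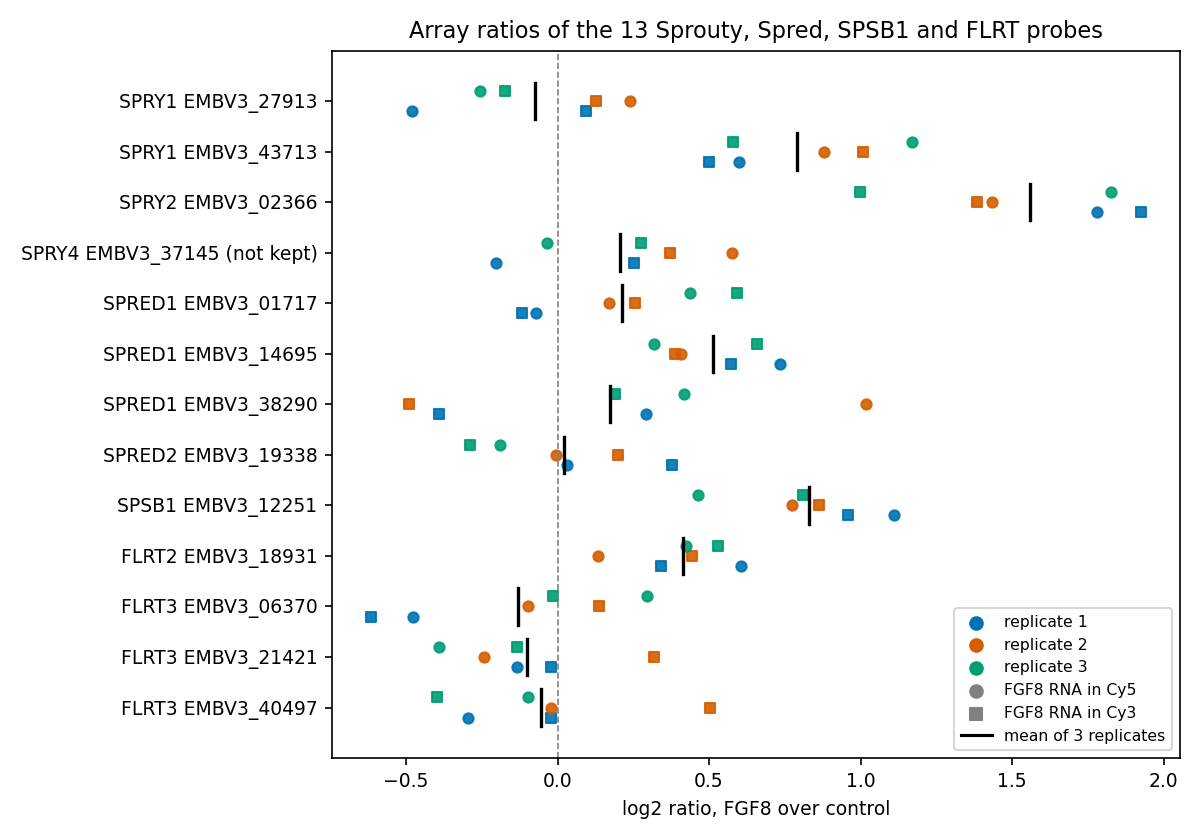
Log2 ratio of FGF8-treated over control RNA on each array (x axis) for the 13 probes (y axis, by gene and probe). Colours mark the replicates, circles and squares the dye of the FGF8 RNA, and black bars the mean of 3 replicates; the SPRY2 points lie between 1.00 and 1.93, to the right of 0 on all 6 arrays.

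SPRY2, a brake on Ras-ERK activation by receptor kinases, had the highest ratio of the 8 genes. On the arrays with FGF8 RNA in Cy5, its spot read 7862, 7985 and 7636 intensity units in treated RNA and 2310, 3215 and 2095 in control RNA for replicates 1, 2 and 3. With FGF8 RNA in Cy3 it read 13345, 9466 and 8538 in treated RNA and 3160, 3276 and 3927 in control RNA. The lowest treated reading was above the highest control reading. In such bulk samples, more cells of a type and more RNA per cell cannot be told apart. Replicate ratios were 1.85, 1.41 and 1.41, a mean of 1.56 ± 0.26 (n = 3), or 2.95-fold, with a 95% interval of 2.30 to 3.78-fold from limma. The adjusted limma p was 0.150 (unadjusted 2.67e-05), and it was 0.00155 in the fit with the replicate block, which takes its degrees of freedom from the 6 arrays. Among all kept genes its ratio ranked 3, after those of XIRP1 and EGR1, and its p also ranked 3.

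The 2 arrays of a replicate did not always give SPRY2 the same size. They differed by 0.15 and 0.052 in replicates 1 and 2 and by 0.83 in replicate 3, where the ratio was 1.83 with FGF8 RNA in Cy5 and 1.00 with it in Cy3. Averaged over replicates, the ratio was 1.68 with FGF8 RNA in Cy5 and 1.44 with it in Cy3, and no dye effect was called for this probe (0.12 on the log2 scale, limma adjusted p = 0.519), while 1 of the 12 kept probes of these genes had one, beside 8.24% of all kept probes. On levels scaled within and between arrays, SPRY2 stood at 13.30, 13.06 and 12.92 in treated replicates and at 11.47, 11.65 and 11.52 in control replicates, log2 units that do not overlap. Levels did not overlap, with treated higher, in 4.86% of all genes.

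SPRY1, the closest relative of SPRY2 measured, was 1.73-fold higher on its brighter probe, EMBV3_43713. Its spot read 1836 to 2656 in treated RNA, with a median of 2073.5, and 903 to 1655 in control RNA, with a median of 1176.5. These raw ranges over both dyes do not overlap. Scaled levels were 10.99, 11.37 and 10.84 in treated replicates and 10.45, 10.43 and 9.98 in control replicates. They did not overlap either, beside 4.86% of all genes with treated higher. Replicate ratios of 0.55, 0.94 and 0.87 averaged 0.79 ± 0.21 (n = 3, limma adjusted p = 0.856, unadjusted 0.00110). The second SPRY1 probe, EMBV3_27913, stood near 0, with replicate ratios of -0.19, 0.18 and -0.22 and a mean of -0.075 ± 0.22 (n = 3). That spot lay close to the limit: it read 83 to 214 in treated and 133 to 217 in control RNA, beside limits of 94.0 to 166.8 and 119 to 173.2, and was above them on 5 of 6 arrays in each. With the mean of both probes in place of the brighter, the SPRY1 ratio was 0.36.

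SPRY4, a Sprouty gene also induced by FGF in other vertebrate tissues, had a single probe and it was not kept. It read 82 to 162 in treated and 102 to 164 in control RNA, and it was above the limit on 2 of 6 arrays in treated RNA and on 0 of 6 in control RNA. Its replicate ratios were 0.025, 0.47 and 0.12, with mixed signs on single arrays (higher on 4 of 6). The probe was thus at background in most treated and all control readings, and no fold is given.

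**Figure D2:**
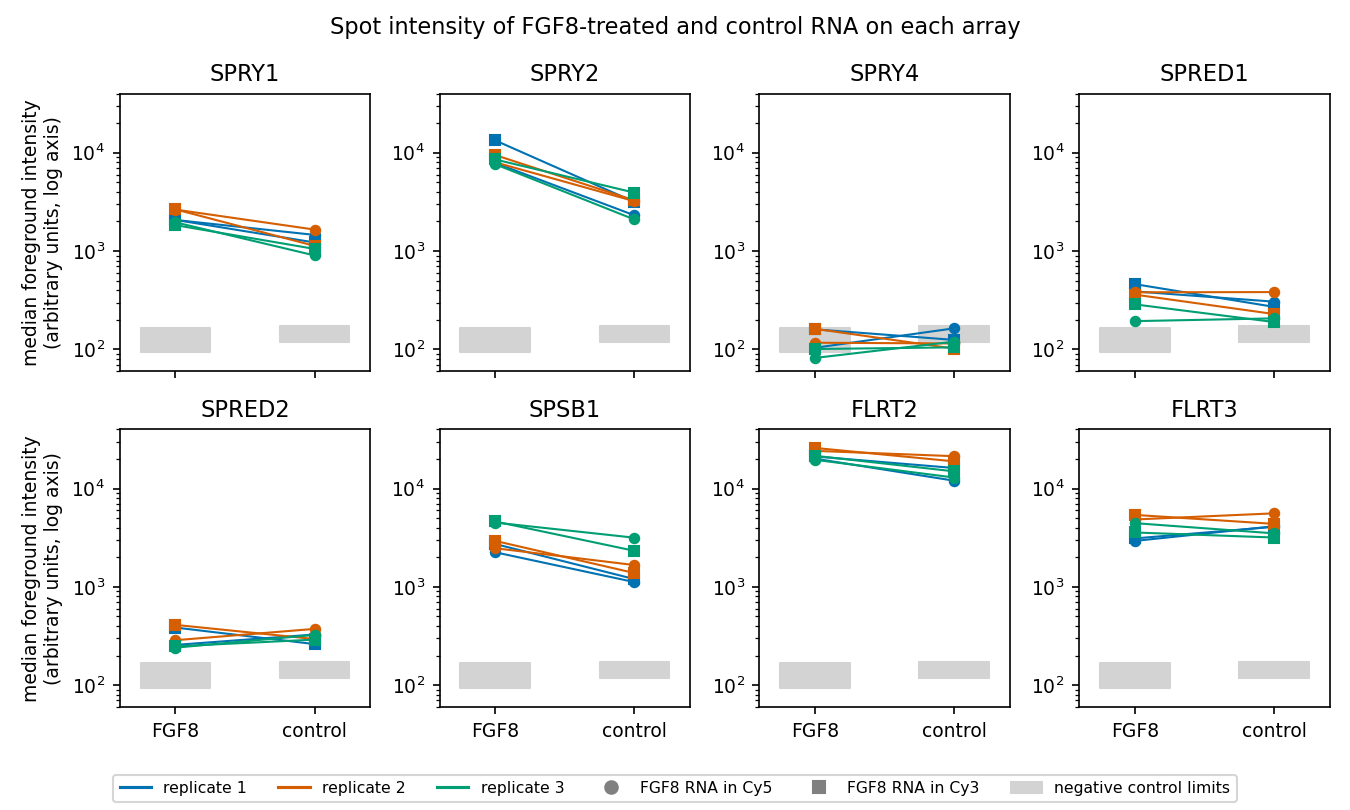
Median foreground intensity in arbitrary units (log axis) of FGF8-treated RNA (left) and control RNA (right) on each array, for the brightest probe of each of the 8 genes. Lines join both RNAs of an array, colours mark replicates, markers the dye, and grey boxes span the negative control limits over arrays; every SPRY2, SPRY1 and SPSB1 line slopes down toward control RNA, and SPRY4 lies at the grey boxes.

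SPRED1, which recruits neurofibromin to Ras, was 1.43-fold higher. Its brightest probe, EMBV3_14695, read 194 to 461 in treated and 190 to 383 in control RNA, ranges that overlap. Raw readings are not normalized between the dyes, and their order can differ from that of the ratio: in replicate 3 with FGF8 RNA in Cy5 the spot read 194 in treated and 207 in control RNA, and the normalized ratio was 0.32. Replicate ratios were 0.65, 0.40 and 0.49, with a mean of 0.51 ± 0.13 (n = 3, limma adjusted p = 0.856, unadjusted 0.00688). The ratio was smaller elsewhere: 0.24 when read from the scanner's mean foreground, and 0.30 when its 3 probes were averaged.

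The other SPRED1 probes were dim. EMBV3_01717 averaged 0.21 ± 0.30 and EMBV3_38290 0.17 ± 0.19 (n = 3 each). Both were above the limit on 2 of 6 arrays in control RNA and on 5 and 4 of 6 in treated RNA, so they were kept through treated RNA only. EMBV3_38290 turned with the dyes, at 0.57 with FGF8 RNA in Cy5 and -0.23 with it in Cy3.

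SPRED2, the second Spred gene, stood near 0. Its spot read 241 to 411 in treated and 262 to 374 in control RNA. Replicate ratios of 0.20, 0.096 and -0.24 averaged 0.020 ± 0.23 (n = 3). The 95% limma interval was -0.33 to 0.37, so folds from 0.80 to 1.29, lower as well as higher, lie inside it. SPRED1 minus SPRED2 was 0.45, 0.30 and 0.73 in the 3 replicates.

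SPSB1, the ubiquitin ligase adaptor, was 1.78-fold higher, about as much as SPRY1. Its spot read 2248 and 2730 in treated RNA of replicate 1, 2471 and 2935 in replicate 2, and 4504 and 4623 in replicate 3. In control RNA it read 1119 and 1200 in replicate 1, 1667 and 1383 in replicate 2, and 3163 and 2326 in replicate 3. Replicate 3 was brighter in both RNAs, so the groups overlap across replicates and not within any of them. Replicate ratios were 1.03, 0.82 and 0.64, a mean of 0.83 ± 0.20 (n = 3, limma adjusted p = 0.856, unadjusted 0.000773). With the replicate block the adjusted limma p was 0.0670. SPSB1 passed with the arrays taken as separate samples (limma adjusted p = 0.0326) and with the slide as a block (limma adjusted p = 0.0399). Both of these fits count arrays in place of replicates.

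The relatives of SPSB1 were added to the comparison after the values of SPSB1 had been seen, and their difference from it was not tested. SPSB2 averaged -0.091 ± 0.27, SPSB3 -0.11 ± 0.55 and SPSB4 0.16 ± 0.54 (n = 3 each). Each of them differed in sign between replicates, and in replicate 3 SPSB4 stood at 0.75 and SPSB3 at 0.52, beside 0.64 for SPSB1.

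FLRT2, an FGF receptor binding membrane protein, gave a small ratio, between 0.13 and 0.61 on single arrays. Its spot read 19587 to 25851 in treated RNA, with a median of 21347.5, and 12007 to 21317 in control RNA, with a median of 15552.5. The ranges overlap through replicate 2, whose control reading of 21317 exceeds the lowest treated one. Replicate ratios were 0.47, 0.29 and 0.48, a mean of 0.41 ± 0.11 (1.33-fold, n = 3, limma adjusted p = 0.856, unadjusted 0.0170).

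FLRT3 differed between replicates on its brightest probe, EMBV3_06370, with ratios of -0.55, 0.018 and 0.14 and a mean of -0.13 ± 0.37 (n = 3, limma adjusted p = 0.916). In replicate 1 that spot read 2933 and 3110 in treated RNA, against 4133 and 4081 in control RNA. Its other probes averaged -0.10 ± 0.15 and -0.055 ± 0.26. Without replicate 1 the FLRT3 ratio turned to 0.079, and with median centring of the scanner values to 0.052. FLRT2 minus FLRT3 was 1.02, 0.27 and 0.34 in the 3 replicates.

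Ratios were compared within replicates for 8 pairs of genes, 3 of them within a family. SPRY2, which had the highest mean ratio, was set against each other measured gene. In the Spred and FLRT pairs too, the gene with the higher mean came first. The order of the means was thus given by the choice of pairs, and the differences are a description. Each pair kept its order in all 3 replicates. SPRY2 exceeded SPRY1 by 1.30, 0.46 and 0.54, and SPSB1 by 0.82, 0.59 and 0.77. Over 3 replicates SPRY2 exceeded SPRED1 by 1.05 ± 0.14, FLRT2 by 1.15 ± 0.22, SPRED2 by 1.54 ± 0.20 and FLRT3 by 1.69 ± 0.62, and each of these differences was positive in 3 of 3. The exact two-sided sign-flip permutation test gave p = 0.25 for each of the 8 differences, the smallest p that 3 replicates allow, so no adjusted p can pass.

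**Figure D3:**
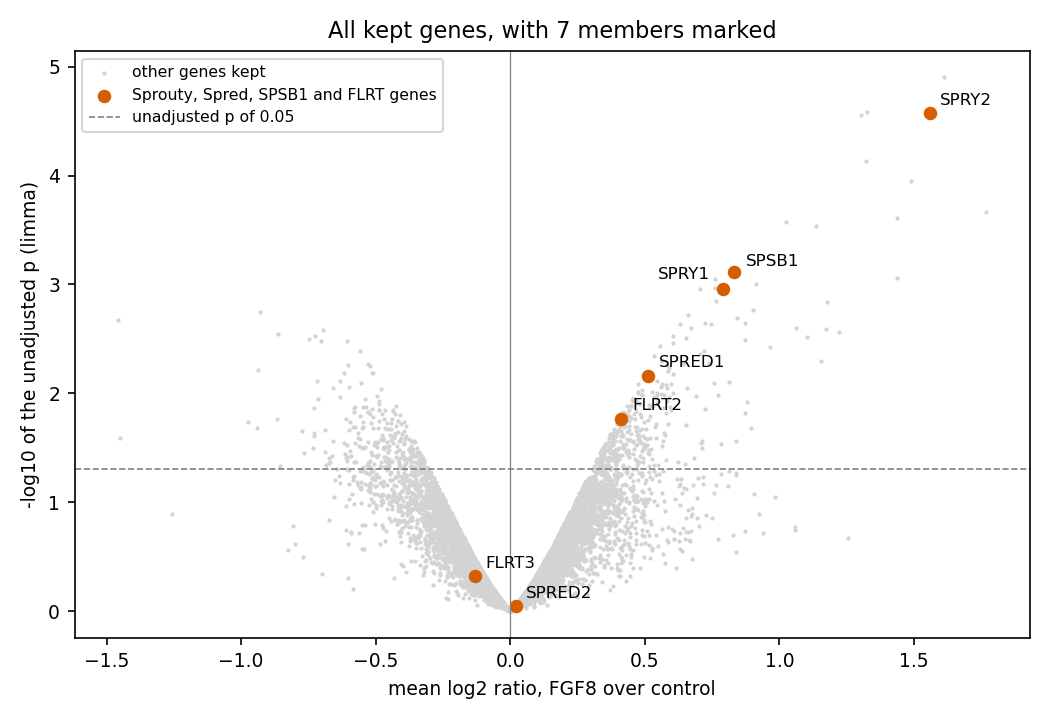
Mean log2 ratio of FGF8-treated over control RNA (x axis) against -log10 of the unadjusted limma p (y axis) for the 11188 kept genes, grey, with the 7 measured genes in orange. The dashed line marks an unadjusted limma p of 0.05; SPRY2 lies among the genes farthest to the upper right, SPSB1, SPRY1, SPRED1 and FLRT2 lie above the line, and FLRT3 and SPRED2 below it.

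Other genes of the pathway were read from lists by role. Of 13 other feedback regulators and ETS genes, 7 were measured, 0 passed in either direction, 1 was higher on all 6 arrays and 0 lower, and their median was 0.13. ERRFI1, an inhibitor of the EGF receptor, was the one higher on all arrays, at 1.13 ± 0.32 (n = 3). DUSP5, a nuclear ERK phosphatase, averaged 0.46 ± 0.36 and the ETS factor ETV1 -0.55 ± 0.58. DUSP6, the cytoplasmic ERK phosphatase, had replicate ratios of -0.19, 0.17 and 2.10, and the ETS factor ETV5 had -1.24, 0.36 and 0.89. SPRY2 was higher in each replicate, replicate 1 included, where DUSP6 and ETV5 had negative ratios. IL17RD, a membrane inhibitor of FGF signalling, was above the limit on 0 of 6 arrays in either RNA, and SPRY3 was not kept.

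The relay from receptor to ERK had genes on both sides of 0. Of 21 genes, 14 were measured, 0 passed in either direction, 2 were higher on all 6 arrays and 1 lower (3.49% and 2.51% over all genes), and the median was -0.063. MAP2K1, which codes for MEK1, averaged 0.43 ± 0.15 and NRAS 0.30 ± 0.25, both higher on all 6 arrays. The other 2 kept NRAS probes averaged -0.026 and -0.12. GRB2, the adaptor that Sprouty proteins bind, averaged -0.31 ± 0.15 and was lower on all 6, and the Ras activator SOS1 averaged -0.34 ± 0.44 (n = 3 each), with -0.13 on its other probe.

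Partners of the 8 proteins also lay on both sides of 0, between -0.24 and 0.37. Of 20 genes, 12 were measured, 0 passed and 0 had the same sign on all 6 arrays, and the median was -0.053. TGFBR2, a receptor that SPSB1 has been reported to bind, averaged 0.26 ± 0.096 on its brighter probe and -0.17 ± 0.11 on the other. Of the FLRT ligands, UNC5B had replicate ratios of -0.16, 0.25 and 1.01 and the latrophilin ADGRL2 averaged 0.15 ± 0.12. RHOA averaged -0.20 ± 0.29 on its brighter probe and 0.14 ± 0.21 on the other, and CUL5, the scaffold of the SPSB1 ligase, -0.073 ± 0.43. CBL, the ubiquitin ligase that binds SPRY2, and NF1, which codes for neurofibromin, were not kept.

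**Figure D4:**
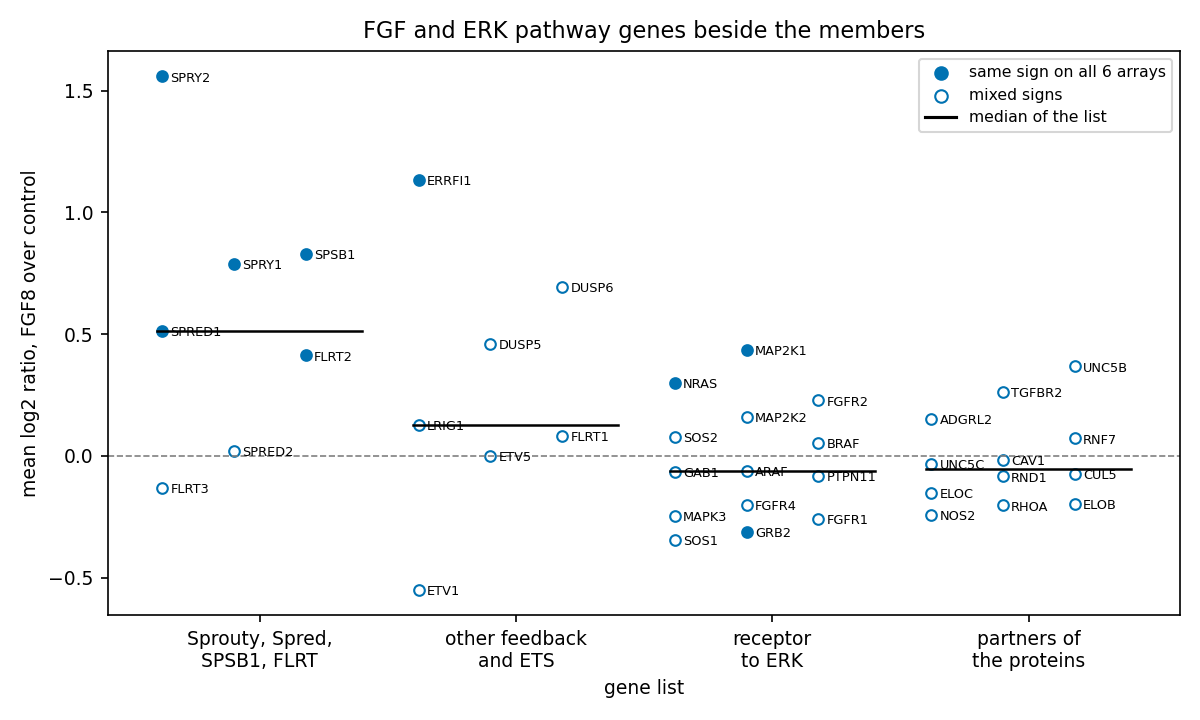
Mean log2 ratio of FGF8-treated over control RNA (y axis) of each measured gene, by list (x axis). Filled points had the same sign on all 6 arrays, open points had mixed signs, and black bars are list medians, 0.51 for the 7 genes described here and 0.13, -0.063 and -0.053 for the other lists.

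Genes whose 6 array ratios lay nearest to those of a member were found by Euclidean distance over 11188 genes, as a description of 6 arrays. SPRY2 was nearest to BAMBI, a pseudoreceptor that blunts TGF-beta signalling (distance 0.62, mean 1.49), then to HAS2, a hyaluronan synthase (0.79, mean 1.44), and the protease ADAMTS1 (0.83, mean 1.32). SPRY1 was nearest to the corepressor TLE3 (0.53), the transcription factor FOXA3 (0.61) and tissue factor F3 (0.64). SPSB1 was nearest to the neurotrophin BDNF (0.60), BTG2 (0.62) and the kinase RPS6KB1 (0.63). FLRT2 was nearest to the receptor kinase MERTK (0.18), GNE (0.27) and CBR3 (0.30), and SPRED1 to SPART (0.27), ZPR1 (0.36) and HEATR3 (0.37). SPRED2 and FLRT3, with ratios near 0, were nearest to KLHL40 (0.12) and LOC100138645 (0.18).

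Cell identity and array quality were checked once for all of these results. Of 12 granulosa markers 10 were measured, all 10 above the limit in both RNAs on all 6 arrays, with a median ratio of 0.043; FOXL2 and HSD17B1 were not kept. Replicates 1, 2 and 3 had granulosa medians of 0.36, -0.0079 and -0.044. FST, which codes for the activin binder follistatin, averaged 0.48 ± 0.31 and was the 1 granulosa marker higher on all 6 arrays (limma adjusted p = 0.856, unadjusted 0.0215). Of the theca markers 2 of 4 were measured (CYP17A1 and LHCGR were not kept), of stroma and smooth muscle 6 of 6, of endothelium 5 of 6 and of leukocytes 4 of 4. Above the limit on all 6 arrays in treated RNA were 1 theca, 5 stroma, 3 endothelial and 2 leukocyte markers. In control RNA they were 1, 6, 2 and 3. Of all 11188 kept genes, 8469 were in treated and 8310 in control RNA, so such detection is not particular to granulosa markers. The median ratios of these 4 lists were 0.21, -0.17, 0.12 and -0.15, with 0 genes at an unadjusted limma p under 0.05 in any of them, and their part in the ratios above was not tested. Across all kept probes, Pearson's r between replicates was 0.010, -0.0099 and 0.110, and between the swapped arrays within replicates 1, 2 and 3 it was 0.474, -0.107 and 0.450. These are correlations across probes, which are not independent replicates. In replicate 2, whose swapped arrays correlated below 0 over all probes, SPRY2 read 1.44 and 1.38, SPRY1 0.88 and 1.01, and SPSB1 0.77 and 0.86 on them. On the same arrays SPRED1 read 0.41 and 0.39, FLRT2 0.13 and 0.44, SPRED2 -0.0066 and 0.20, and FLRT3 -0.099 and 0.14.

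**Figure D5:**
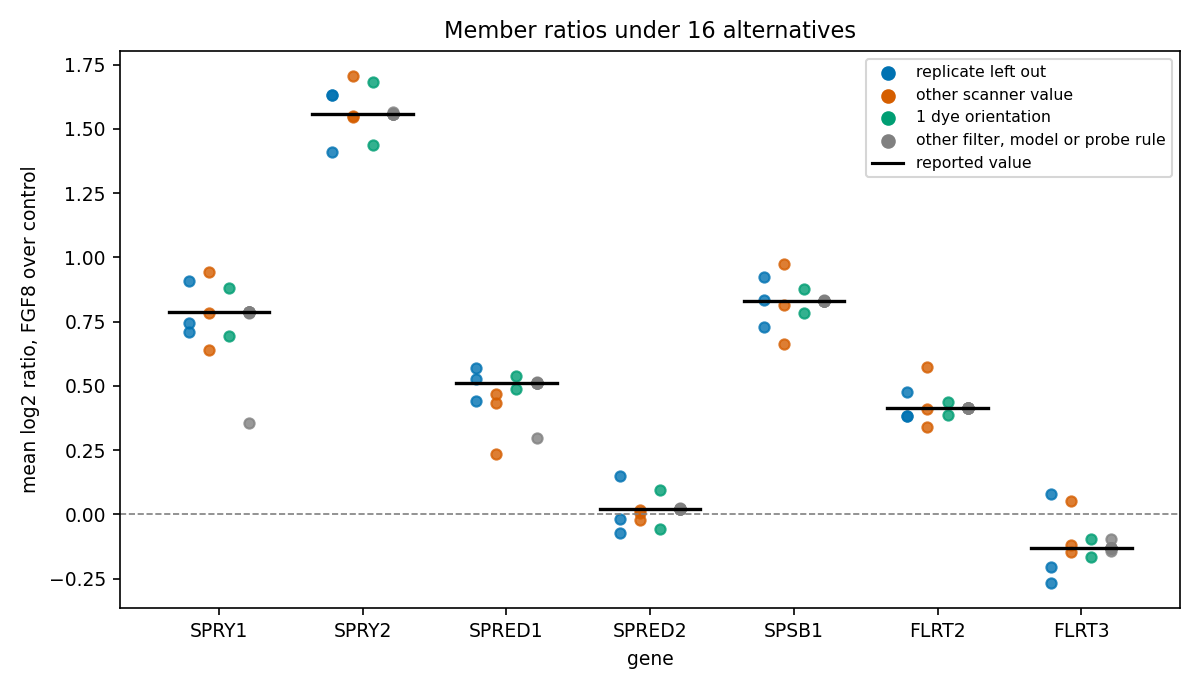
Mean log2 ratio of FGF8-treated over control RNA (y axis) of the 7 measured genes (x axis) under 16 alternatives, with the reported value as a black bar. SPRY2 lies between 1.41 and 1.71 throughout, the low grey points of SPRY1 (0.36) and SPRED1 (0.30) are means over their kept probes, the lowest SPRED1 point (0.24) is from mean foreground, and SPRED2 and FLRT3 have points on both sides of 0.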

How the data were processed

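Per the labels' protocols, RNA was amplified by T7 transcription before Cy3 or Cy5 was coupled to it. Per the file headers, the scanner tables give foreground and background intensity per spot and channel, not background-corrected. The deposited table holds a log2 ratio per array, and each column correlated at 1.00 with that array's treated over control ratio of background-subtracted median foreground after loess, which settles scale and direction. Its column medians were 0.0025, 0.0030, 0.0018, -0.00085, 0.0063 and 0.0067. Further steps by the authors are not stated in the labels or headers.

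The deposited ratios were used, with scanner values (normexp, offset 50, loess) as an alternative that correlated with them at 0.753 on the replicate 1 array with FGF8 RNA in Cy3 and at 0.991 to 0.997 on the others. The number of arrays limits the precision. Probes ignored on any array (143) and control spots were left out. Symbols came from the platform annotation: 21790 probes have 1 symbol, 0 several and 22004 none. Replicate means of both dye orientations were tested against 0 with limma 3.58.1 in R 4.3.3. The fit was also run on simulated ratios with known folds, which checked its mean estimates and set no condition on the calls. The pairing is part of the design, since both RNAs of a replicate were hybridised together. Their deviations from the group means correlated at 0.159, 0.364 and 0.340. Both levels come from the same spots, so these correlations cannot tell a shared origin of the RNAs from a shared spot. The genes, lists and tests were chosen with earlier results of these data known; in each list up to 4 genes with the smallest p were named, with DUSP6, ETV5, IL17RD, CBL, NF1 and CUL5 always, and for each measured gene the 3 nearest genes were found. Scaled levels used loess and Aquantile normalization. As the array names are read, replicate 1 was on its own slides and replicates 2 and 3 shared 1 slide.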

Additional observations from a re-analysis of the deposited data

Results flagged for a closer look

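The SPRED1 probe EMBV3_38290 gave different ratios in the dye orientations. Its Cy5 over Cy3 effect, the distance of each orientation's mean ratio from their average, was 0.40 on the log2 scale (limma adjusted p = 0.0317, n = 3 replicates), with ratios of FGF8-treated over control RNA of 0.29, 1.02 and 0.42 with FGF8 RNA in Cy5 and of -0.39, -0.49 and 0.19 with it in Cy3. Of all kept probes 2242 (8.24%) had such an effect, and 1 of the 12 probes described here did. The spot read 107 to 137 in treated and 104 to 153 in control RNA, at the negative control limits. The average of both orientations cancels the effect.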

How the results depend on the processing

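The 7 genes were refitted under 16 alternatives. SPRY2, SPSB1, SPRY1, SPRED1 and FLRT2 had a positive ratio in all 16. They were higher on all 6 arrays, so fits of the deposited ratios of the same probes had to give that sign. For the same reason these 5 genes were higher on all arrays used in each fit without a replicate. Only the 3 forms of scanner values and the means of kept probes could change the sign. SPRY2 lay between 1.41 and 1.71, SPSB1 between 0.66 and 0.98 and SPRY1 between 0.36 and 0.94. SPRED1 lay between 0.24 and 0.57 and FLRT2 between 0.34 and 0.57. Adjusted limma p for SPRY2 ranged from 0.000746 to 0.819. The number of the 7 genes called was 1 in the fit of 6 arrays with the replicate block and 1 on the arrays with FGF8 RNA in Cy5, and 2 with 6 arrays and no replicate block and 2 with the slide as a block. All genes called were 11, 8, 15 and 12 in these fits, and 0 in the other 12 alternatives, those without a replicate included (0 to 0); at an unadjusted limma p under 0.05 there were 619 genes in the reported fit. Fits of a single dye orientation cannot separate the effect of FGF8 from that of the dye. With FGF8 RNA in Cy3, 0 of the 7 genes were called. The median of the 7 genes was 0.43 from scanner values with normexp and loess, 0.34 from their mean foreground, 0.36 as means of kept probes, and 0.44 to 0.57 without a replicate. SPRED2 turned to -0.023 from scanner values with normexp and loess, to -0.055 with FGF8 RNA in Cy5, and to -0.072 and -0.018 without replicates 1 and 2 (0.15 without replicate 3). FLRT3 turned to 0.052 with median centring and to 0.079 without replicate 1 (-0.26 without replicate 3). The dye effect on the SPRED1 probe was called for 0 probes from scanner values (3 forms), with the filter on all 6 arrays, with 6 arrays and no replicate block, and with the slide as a block, and for 0 to 1 without a replicate (0 without replicate 2). Single orientations and means of probes give no value for it. The filter on all 6 arrays leaves that probe out; the cause of the other changes was not tested. The dimmer probes of SPRY1, SPRED1 and FLRT3 and the SPRY4 probe lie near background, which limits their ratios.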
